A study of Mus musculus with 9 samples.

Results

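The breakdown of the branched-chain amino acids leucine, isoleucine and valine was followed in the perinatal mouse heart through 10 genes, chosen by symbol for their place in that pathway, of the 48820 genes in the deposited table. All 10 symbols matched exactly 1 row each, and all 10 passed the filter for testing, a mean of at least 1 FPKM (fragments per kilobase of transcript, scaled to sequencing depth) over the hearts. RNA of 9 hearts had been sequenced, with 3 biological replicates at each of 3 stages. These were embryonic day 18.5 (E18.5d), postnatal day 1 (P1d) and postnatal day 7 (P7d). All mice were wild type on the C57BL/6J strain, untreated, and labelled male. The design asks how the transcriptome of the heart changes from the last days before birth to the first week of suckling. The main changes in these genes were in the branched-chain keto acid dehydrogenase: the alpha subunit of its decarboxylase was 2.47-fold higher at P1d than at E18.5d while the beta subunit fell by 59.6% from E18.5d to P7d.

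The pathway starts with a transaminase, mitochondrial in the case of Bcat2 and cytosolic in the case of Bcat1, which passes the amino group to 2-oxoglutarate and leaves a branched-chain keto acid. The keto acid is then committed to oxidation by the mitochondrial branched-chain keto acid dehydrogenase, a complex built of a decarboxylase (Bckdha and Bckdhb), an acyltransferase core (Dbt) and the dihydrolipoamide dehydrogenase Dld, which it shares with the pyruvate and 2-oxoglutarate dehydrogenases. The kinase Bckdk phosphorylates Bckdha and turns the complex off, and the phosphatase Ppm1k removes the phosphate and turns it on. Beyond the complex each amino acid has its own arm: Hibch and Hibadh act in the arm of valine, and Mccc1 carries the biotin of methylcrotonyl-CoA carboxylase in the arm of leucine.

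The sequences upstream of 2 members are shown because these genes, Bckdhb and Bcat2, had the largest falls of the 10 at P7d against E18.5d. Each is the 250 bases before the gene's RefSeq start on GRCm38.p6, read on the gene's own strand, which is the plus strand in both. The window of Bckdhb is chr9:83924887-83925136 and that of Bcat2 is chr7:45569903-45570152. Capitals mark GC boxes (GGGCGG) and CCAAT boxes (CCAAT), each searched on both strands, with overlapping matches counted one by one.
Bckdhb: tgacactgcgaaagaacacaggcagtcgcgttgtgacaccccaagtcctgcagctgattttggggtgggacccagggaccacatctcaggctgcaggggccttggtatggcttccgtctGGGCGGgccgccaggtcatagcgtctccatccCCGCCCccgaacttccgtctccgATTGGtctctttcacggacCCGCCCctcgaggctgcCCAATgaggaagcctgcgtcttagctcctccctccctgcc
Bcat2: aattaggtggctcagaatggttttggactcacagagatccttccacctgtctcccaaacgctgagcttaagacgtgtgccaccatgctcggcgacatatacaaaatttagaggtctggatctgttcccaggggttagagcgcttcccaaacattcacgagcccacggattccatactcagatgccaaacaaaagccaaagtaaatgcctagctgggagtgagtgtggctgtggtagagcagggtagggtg
The window of Bckdhb held 3 GC boxes and 2 CCAAT boxes, none of them overlapping, whereas that of Bcat2 held neither motif. The windows were scored over 300 bases, the 250 before the start and the 50 after it, in which the GC content was 65.0% for Bckdhb and 54.0% for Bcat2. The median of all 32851 RefSeq windows was 52.67%. A window was found for 9 of the 10 members. Of these 9 windows, 5 held a GC box and 6 a CCAAT box, motifs found in 35.7% and 37.4% of all windows. The nuclear receptor half-site AAGGTCA and the E-box CACGTG, found in 4.72% and 7.15% of all windows, were in 0 of the 9. A match of letters is a description of the sequence and does not show that a factor binds. The window of Bckdha (chr7:25658762-25659011) is not shown, as most of it lies inside the gene as placed by GENCODE M21 (chr7:25629946-25658981).

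Depth, read from the steps between low FPKM values, was 25.25 to 45.0 times 1e6 fragments per heart, so that each member rested on at least 500 fragments in each heart (the fewest in Bcat1, the most, 25433, in Hibadh). Counting error was then at most 4.47% for a member in a heart. The labels call every mouse male, but Xist, which is made from the inactive X chromosome of females, was at 58.03 to 97.03 FPKM in 4 hearts (E18.5d replicates 1 and 3, P7d replicates 2 and 3), in which the 4 Y-linked genes checked were at 0. It was at 0.11 FPKM or less in the other 5. Structural RNAs took 53.3 to 62.3% of the summed FPKM, the highest share in P1d replicate 2. The defining markers of cardiomyocytes were high throughout and their summed FPKM was 10715 to 10873 at E18.5d, 14933 to 15907 the day after birth and 15170 to 15805 by P7d. Within that sum Myh6 averaged 3220, 6737 and 8318 FPKM over the stages in order, and Tnnt2 4431, 4775 and 3056. The sum thus depends on single genes and does not give the share of cardiomyocytes. At P7d against E18.5d, 4 of the 5 markers were higher and 1 lower. Those of endothelial cells were 4 of 4 higher in that comparison. Fibroblast markers were 1 of 4 higher, with sums of 489 to 499, 387 to 538 and 643 to 656 FPKM over the stages. Macrophage markers were 1 of 4 higher and none lower. Of the 3 smooth muscle and pericyte markers, 1 was higher and 1 lower. Of the 2 skeletal muscle markers tested, 1 was lower. Erythroid markers were 0 of 3 in either direction. Those of the epicardium were 2 of 3 lower, with sums of 38.3 to 46.9, 37.1 to 51.7 and 20.3 to 24.5 FPKM, and the 2 brown fat markers summed to 5.56 to 7.77, 22.4 to 23.0 and 31.3 to 36.7 FPKM. Of the 2 lung markers, a secretoglobin reached 53.2, 127 and 179 FPKM in E18.5d replicates 1 and 2 and P1d replicate 1 while Sftpc stayed at 0.44 or less in every heart, liver markers reached 26.2 FPKM in P1d replicate 2, and thymus markers stayed at 0.27 or less. The part of these markers in the values below was not tested. In bulk tissue, fewer cells of a type and less RNA per cell cannot be told apart.

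At P7d against E18.5d, 3 of the 10 genes were higher, 5 were lower and 2 passed in neither direction (limma, Benjamini-Hochberg adjusted p under 0.05 over all genes tested). Of the 13618 genes tested, 12.5% were higher and 36.9% lower in the same comparison (49.4% in all), so lower calls outnumbered higher ones among the members and in the background alike. In the comparison of P1d with E18.5d, 2 were higher and 2 lower, beside 18.4% and 27.6% of all genes (46.0% in all). From P1d to P7d, 1 was higher and 5 were lower, beside 15.5% and 28.6% (44.2% in all). All 3 P7d hearts lay above all 3 E18.5d hearts in 3 members and below them in 5, beside 16.9% and 45.6% of all genes (62.5% in all). The same counts were 2 and 4 for P1d over E18.5d, beside 22.1% and 32.3% (54.4% in all), and 1 and 5 for P7d over P1d, beside 19.3% and 34.3% (53.6% in all). A call or a gap alone thus does not set a member apart from the other genes. The median log2 change of the members was -0.36, -0.19 and -0.26 in these comparisons in that order, and that of all genes tested was -0.17, -0.06 and -0.09. Rescaling the hearts by the median of ratios moved the median of all genes at P7d against E18.5d to -0.02 from its value on the deposited scale, so changes at P7d read lower on the deposited scale than relative to the typical gene. With the columns rescaled to an equal sum the members split 1 higher to 5 lower at P7d against E18.5d. Of all 13618 genes, 1267 were higher and 4443 lower there. At P1d against E18.5d the split was 1 higher to 4 lower, beside 1175 and 4694 of all genes. An equal sum leans on the structural RNAs, which took 53.3 to 62.3% of the summed FPKM. Both that share and the sum itself (1794160) were highest in P1d replicate 2. Calls at P1d that were lost on this scale should be read with that limit. All log2 changes are differences in log2(FPKM + 1), which understate the change of low genes, and more so the lower the level. For Slc43a2, a transport gene described below, the change at P1d against E18.5d was 1.07 on this scale. Its mean FPKM was 2.93-fold higher. Without the 4 hearts with high Xist, E18.5d and P7d keep 1 heart each, the spread comes from the 3 P1d hearts alone, and only the falls of Bckdhb at P7d stayed past the threshold.

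**Figure D1:**
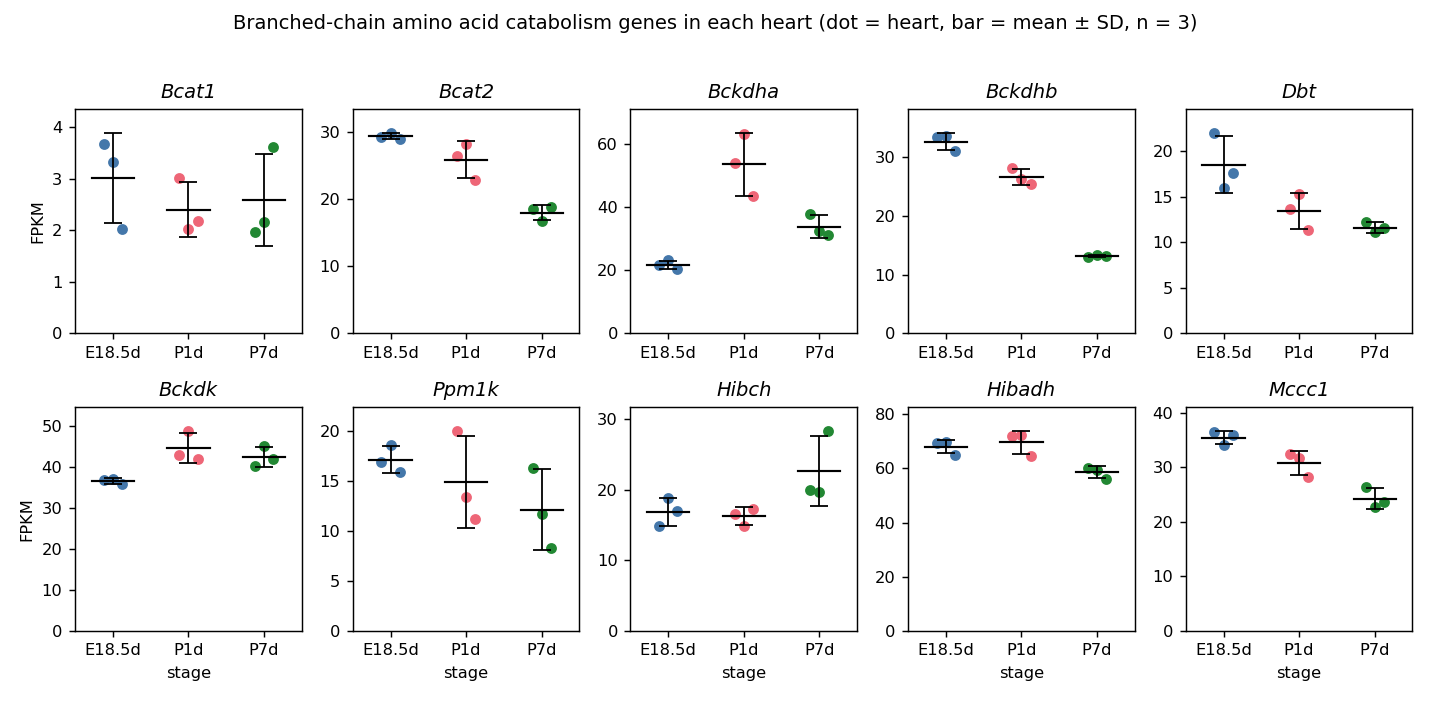
FPKM (vertical axis, from 0) of the 10 genes in each of the 9 hearts by stage (horizontal axis). Dots are hearts, long bars the mean and whiskers the SD of 3 hearts. Bckdha peaked at P1d (43.3 to 63.1 FPKM against 20.3 to 23.0 at E18.5d), while Bckdhb had dropped to 13.0 to 13.3 FPKM by P7d.

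Of the transaminases of the first step, the mitochondrial one was far the more abundant transcript. Bcat2 (ENSMUSG00000030826.19, chr7:45570153-45589711, plus strand) was at 29.19, 29.81 and 28.99 FPKM in the E18.5d hearts, at 26.46, 28.25 and 22.87 at P1d, and at 18.44, 16.7 and 18.8 at P7d. Every P7d heart lay below every heart of the other stages, and the P1d hearts lay below those of E18.5d. The log2 change at P7d was -0.68 ± 0.08 (SE) against E18.5d (limma adjusted p = 0.000149) and -0.50 ± 0.08 against P1d (adjusted p = 0.00112). Between E18.5d and P1d it was -0.18 ± 0.08 and missed the threshold (adjusted p = 0.0954), though it passed without P1d replicate 2 (-0.24, adjusted p = 0.036) and with columns rescaled to an equal sum (-0.35, adjusted p = 0.0244). Without the hearts with high Xist both P7d changes lost their calls, at -0.66 (adjusted p = 0.129) and -0.46 (adjusted p = 0.152). Exons of Bcat2 share 15.9% of their length with the antisense gene 0610005C13Rik, which averaged 0.557 FPKM.

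Bcat1 (ENSMUSG00000030268.17, chr6:144993835-145076184, minus strand), the cytosolic transaminase, had the lowest level of the 10 genes at every stage. Its values were 3.68, 3.33 and 2.03 FPKM at E18.5d, 3.01, 2.02 and 2.17 at P1d, and 1.97, 2.16 and 3.61 at P7d. The hearts of the 3 stages overlapped, with a coefficient of variation of 22.2 to 34.8% within a stage. No comparison passed the threshold (log2 changes of -0.23, -0.17 and 0.06 at P1d against E18.5d, P7d against E18.5d and P7d against P1d, adjusted p of 0.408, 0.536 and 0.846). The ratio of Bcat1 to Bcat2 FPKM within a heart had geometric means of 0.103, 0.0953 and 0.143 over the stages in order, with overlapping hearts.

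The subunits of the dehydrogenase moved in different directions. Bckdha (ENSMUSG00000060376.7, chr7:25629946-25658981, minus strand), the alpha subunit of the decarboxylase and the one the kinase phosphorylates, was at 21.48, 23.02 and 20.26 FPKM at E18.5d. It reached 53.87, 63.11 and 43.29 FPKM at P1d and was at 37.88, 32.29 and 30.97 at P7d. The 3 stages did not overlap: P1d was highest, E18.5d lowest and P7d in between. The change at P1d against E18.5d was 1.25 ± 0.13 log2 (limma adjusted p = 7.05e-05), the largest of any member in that comparison and past 2-fold. P7d stayed 1.56-fold above E18.5d (0.62 ± 0.13, adjusted p = 0.00343) and fell by 36.9% from P1d (-0.64 ± 0.13, adjusted p = 0.00345). Without the hearts with high Xist these values were 1.16 (adjusted p = 0.0505), 0.69 (adjusted p = 0.201) and -0.47 (adjusted p = 0.254), and each passed under the other 18 alternatives tried, a fold threshold aside. The exons of Bckdha overlap those of B3gnt8, a glycosyltransferase gene on the opposite strand, over 1171 bases, or 61.7% of the exon length of Bckdha. B3gnt8 was listed at 1.97, 3.02 and 1.62 FPKM at E18.5d, P1d and P7d. Whether reads were counted by strand is not given in the sources used here, so reads in the shared bases cannot be told apart.

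Bckdhb (ENSMUSG00000032263.14, chr9:83925145-84124240, plus strand), the beta subunit that forms the decarboxylase together with Bckdha, was at 33.35, 33.62 and 31.02 FPKM at E18.5d. It was at 28.15, 26.32 and 25.44 FPKM at P1d and at 13.04, 13.3 and 13.22 at P7d, where the hearts varied by 1.01% of their mean. Each stage lay wholly below the one before. The fall at P7d against E18.5d was -1.25 ± 0.06 log2 (adjusted p = 7.59e-07), the only one of the members in that comparison past 2-fold. Most of it came after P1d, with -0.28 ± 0.06 at P1d against E18.5d (adjusted p = 0.00385) and -0.96 ± 0.06 at P7d against P1d (adjusted p = 9.46e-06). A fold threshold aside, the P7d falls passed under all 19 alternatives, including without the hearts with high Xist (-1.30, adjusted p = 0.0358, against E18.5d and -0.98, adjusted p = 0.0451, against P1d). The P1d fall was -0.33 without those hearts (adjusted p = 0.15).

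Dbt (ENSMUSG00000000340.10, chr3:116513070-116549981, plus strand), the acyltransferase core, was at 21.99, 15.96 and 17.61 FPKM at E18.5d. It was at 13.63, 15.35 and 11.35 FPKM at P1d and at 12.22, 11.08 and 11.54 at P7d. The E18.5d hearts lay above all others, while P1d and P7d overlapped. Dbt fell by 0.62 ± 0.13 log2 from E18.5d to P7d (limma adjusted p = 0.00321). Its change to P1d was -0.43 ± 0.13 (adjusted p = 0.02). This call did not hold without E18.5d replicate 1 (-0.31, adjusted p = 0.0673) or P1d replicate 3 (-0.32, adjusted p = 0.0599) and with a term for high Xist (-0.37, adjusted p = 0.11). Without the hearts with high Xist the changes at P7d and P1d against E18.5d were -0.36 (adjusted p = 0.389) and -0.24 (adjusted p = 0.439). At P7d against P1d it was -0.19 ± 0.13 (adjusted p = 0.26).

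The balance of the subunits was compared within each heart, where the scale of the column cancels. The ratio of Bckdha to Bckdhb FPKM was 0.645, 0.686 and 0.654 in the E18.5d hearts, 1.91, 2.39 and 1.70 at P1d, and 2.89, 2.42 and 2.33 at P7d. On the deposited values it was thus below 1 in every heart before birth and above 1 in every heart after it. How reads in the bases shared with B3gnt8 were counted is not known. The level of Bckdha, and with it the place of this ratio against 1, is therefore uncertain. The mean log2 ratio was 1.58 higher at P1d and 1.94 higher at P7d than at E18.5d, with no overlap between hearts, whereas P1d and P7d overlapped. The ratio of Bckdha to Dbt had geometric means of 1.17, 3.94 and 2.88, and the hearts of its 3 stages did not overlap (0.977 to 1.44, 3.79 to 4.09 and 2.67 to 3.08). For each stage pair without overlap the exact two-sided permutation test gave p = 0.1, the smallest that 3 hearts against 3 allow, and 0.158 after adjustment over the 30 tests (10 ratios in 3 comparisons). These ratios are of RNA levels and do not give the make-up of the protein complex.

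**Figure D2:**
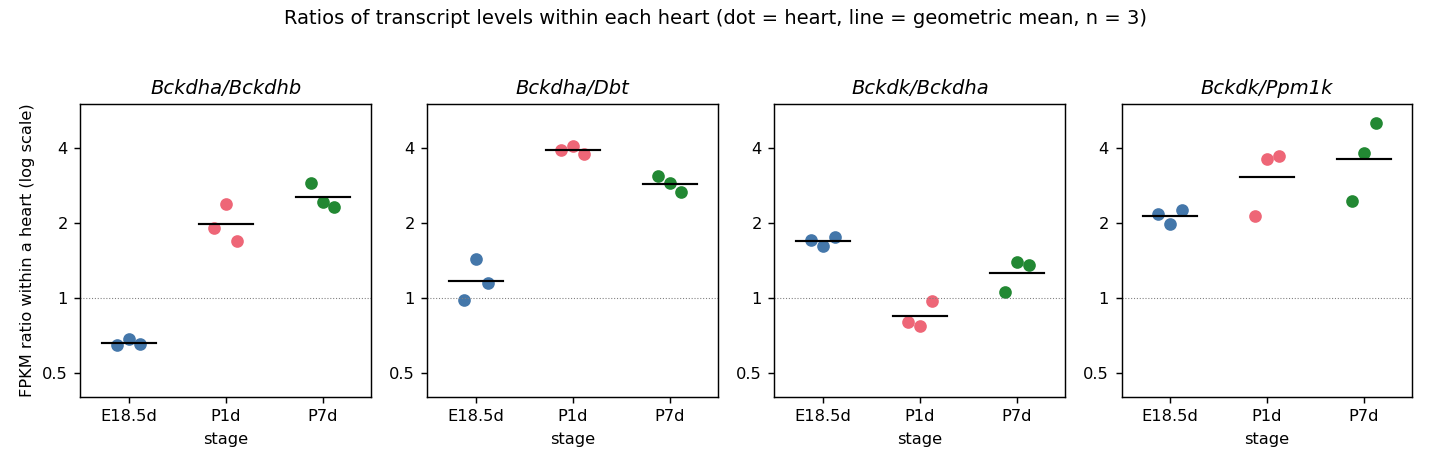
Ratio of 2 genes' FPKM within each heart (vertical axis, log scale with a dotted line at 1) by stage (horizontal axis). Dots are hearts and bars geometric means of 3. For ratios with Bckdha the place against 1 depends on how reads shared with B3gnt8 were counted, which is not known. Bckdha/Bckdhb was 0.645 to 0.686 at E18.5d and 2.33 to 2.89 at P7d, and Bckdk/Bckdha was lowest at P1d (0.774 to 0.969).

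Of the enzymes that switch the complex, the kinase was the more abundant transcript in every heart. Bckdk (ENSMUSG00000030802.14, chr7:127904082-127910221, plus strand), which turns the complex off, was at 36.86, 37.02 and 35.81 FPKM at E18.5d, 42.89, 48.82 and 41.95 at P1d, and 40.14, 45.02 and 41.88 at P7d. Both postnatal stages lay above E18.5d and overlapped each other. The rise at P1d was 0.28 ± 0.07 log2 (limma adjusted p = 0.0105), lost with the columns rescaled to an equal sum (0.11, adjusted p = 0.315) and without the hearts with high Xist (0.26, adjusted p = 0.256). At P7d against E18.5d it was 0.21 ± 0.07 (adjusted p = 0.0354). That call was lost without E18.5d replicate 1, 2 or 3 (adjusted p of 0.0732, 0.0741 and 0.0923), without P7d replicate 2 (0.16, adjusted p = 0.123) or 3 (adjusted p = 0.0714), and without the hearts with high Xist (0.11, adjusted p = 0.693). So it was without a filter on low values, with an equal sum or with a term for Xist (adjusted p of 0.0514, 0.128 and 0.0504). It was 0.38 with adjusted p = 0.00248 after rescaling by the median of ratios. The change from P1d to P7d was -0.07 ± 0.07 (adjusted p = 0.446) and changed sign under rescaling.

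Ppm1k (ENSMUSG00000037826.5, chr6:57506502-57535468, minus strand), the phosphatase that turns the complex on, was at 16.88, 18.52 and 15.86 FPKM at E18.5d, 19.99, 13.41 and 11.16 at P1d, and 16.31, 11.68 and 8.25 at P7d. Its hearts were spread widely after birth, with a coefficient of variation of 30.9% at P1d and 33.5% at P7d against 7.85% at E18.5d, and the stages overlapped. No comparison passed the threshold (-0.23 ± 0.24, -0.51 ± 0.24 and -0.29 ± 0.24 log2 at P1d against E18.5d, P7d against E18.5d and P7d against P1d, adjusted p of 0.46, 0.0988 and 0.354). Without P7d replicate 1 the change at P7d against E18.5d was -0.74 (adjusted p = 0.0265). The ratio of Bckdk to Ppm1k within a heart had geometric means of 2.14, 3.07 and 3.61. The P7d hearts (2.45 to 5.03) lay above those of E18.5d (1.99 to 2.25), and the P1d hearts (2.14 to 3.73) overlapped both. The ratio of Bckdk to its substrate Bckdha had geometric means of 1.69, 0.842 and 1.26. Its stages did not overlap (1.61 to 1.76, 0.774 to 0.969 and 1.06 to 1.39, exact permutation p = 0.1 and adjusted p = 0.158 for each pair). The place of this ratio against 1 is uncertain, as the counting of reads that Bckdha shares with B3gnt8 is not known.

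In the valine arm the values of Hibch were higher and those of Hibadh lower at P7d than before. Hibch (ENSMUSG00000041426.12, chr1:52844929-52920986, plus strand), which releases 3-hydroxyisobutyrate from its CoA ester, was at 14.89, 18.78 and 16.95 FPKM at E18.5d, 16.58, 14.84 and 17.3 at P1d, and 19.92, 19.68 and 28.37 at P7d. The P7d hearts lay above all others, with replicate 3 well above the other two. The change was 0.39 ± 0.14 log2 at P7d against E18.5d (limma adjusted p = 0.0406) and 0.44 ± 0.14 against P1d (adjusted p = 0.0283), with -0.05 at P1d against E18.5d (adjusted p = 0.796). The first call was lost without E18.5d replicate 1 (0.31, adjusted p = 0.134) or 3 (adjusted p = 0.0836), P1d replicate 1 (adjusted p = 0.0536) or P7d replicate 3 (0.22, adjusted p = 0.113). The second was lost without P1d replicate 1 (adjusted p = 0.0573) or 2 (adjusted p = 0.0834) or P7d replicate 3 (0.27, adjusted p = 0.0715). Without a filter on low values or with a term for Xist neither passed (adjusted p of 0.0877 and 0.0556 for the first, 0.0671 and 0.101 for the second), and the first did not pass with an equal sum or with only its 2 stages fitted (adjusted p of 0.15 and 0.0568). Without the hearts with high Xist the values were 0.08 (adjusted p = 0.795) and 0.28 (adjusted p = 0.261).

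Hibadh (ENSMUSG00000029776.11, chr6:52546228-52640389, minus strand), the next enzyme, which oxidizes 3-hydroxyisobutyrate, had the highest level of the 10 genes at every stage. It was at 69.57, 69.58 and 65.13 FPKM at E18.5d, 72.01, 72.24 and 64.74 at P1d, and 60.21, 59.52 and 56.25 at P7d. The P7d hearts lay below all others. The log2 change was -0.21 ± 0.06 at P7d against E18.5d (limma adjusted p = 0.0181) and -0.24 ± 0.06 against P1d (adjusted p = 0.011), but after rescaling by the median of ratios these were -0.03 (adjusted p = 0.688) and -0.13 (adjusted p = 0.0984). Quantile normalization also ended both calls (adjusted p of 0.321 and 0.12), and an equal sum or a term for Xist ended the second (adjusted p of 0.387 and 0.0832). The first call was also lost without E18.5d replicate 1 (-0.20, adjusted p = 0.0594), E18.5d replicate 2 (adjusted p = 0.0645) or P7d replicate 3 (-0.18, adjusted p = 0.0665), and without the hearts with high Xist the values were -0.21 in both (adjusted p = 0.423 and 0.326). Its change to P1d was 0.03 (adjusted p = 0.705). The ratio of Hibch to Hibadh, which is free of the scale, had geometric means of 0.248, 0.234 and 0.382, and every P7d heart (0.332 to 0.505) lay above every earlier heart (0.207 to 0.271).

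In the leucine arm, Mccc1 (ENSMUSG00000027709.9, chr3:35959312-36000678, minus strand), the biotin-carrying alpha subunit of methylcrotonyl-CoA carboxylase, had its lowest values at P7d. It was at 36.37, 34.02 and 35.9 FPKM at E18.5d, 32.39, 31.71 and 28.18 at P1d, and 26.33, 22.73 and 23.63 at P7d, without overlap between stages. The log2 change was -0.53 ± 0.07 at P7d against E18.5d (limma adjusted p = 0.000394) and -0.33 ± 0.07 against P1d (adjusted p = 0.0062). Between E18.5d and P1d it was -0.20 ± 0.07 (adjusted p = 0.0529), and passed without P7d replicate 1 (adjusted p = 0.0446), with a filter of at least 5 FPKM (adjusted p = 0.0481) and with an equal sum (-0.37, adjusted p = 0.0225). Without the hearts with high Xist the P7d changes were -0.36 (adjusted p = 0.24) and -0.21 (adjusted p = 0.346), and the one against P1d was also lost with the columns rescaled to an equal sum (-0.21, adjusted p = 0.198). Its partner, the beta subunit Mccc2, was at 15.36, 15.63 and 13.52 FPKM at E18.5d, 13.89, 14.77 and 12.57 at P1d, and 10.02, 10.08 and 9.66 at P7d. Mccc2 fell by 0.53 ± 0.08 log2 from E18.5d to P7d (adjusted p = 0.000486) and by 0.43 ± 0.08 from P1d to P7d (adjusted p = 0.00202). The ratio of Mccc1 to Mccc2 within a heart overlapped between all stages, with geometric means of 2.38, 2.23 and 2.42.

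**Figure D3:**
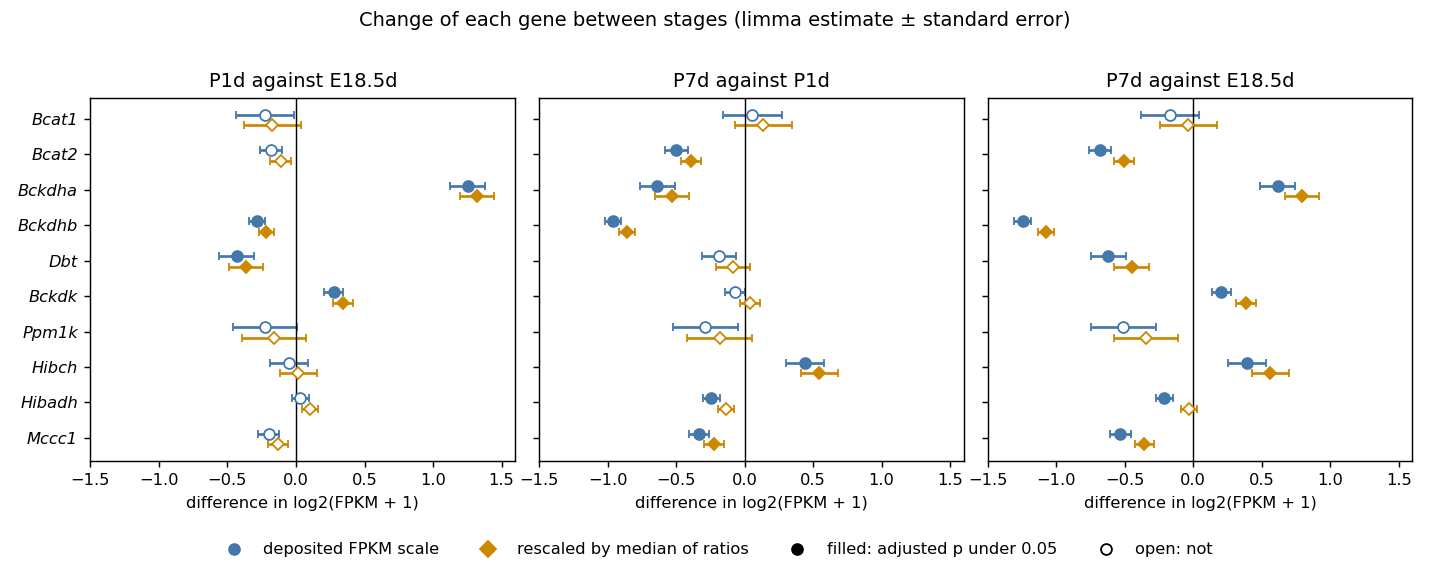
Difference in log2(FPKM + 1) of each gene (horizontal axis, limma estimate with its standard error) in the 3 comparisons. Blue circles use the deposited FPKM, orange diamonds the hearts rescaled by the median of ratios, and filled symbols have an adjusted p under 0.05. The call of Hibadh at P7d against E18.5d is lost on rescaling (-0.21 against -0.03), while Bckdhb and Bckdha keep theirs.

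The order of the 10 levels, on the per-length FPKM scale, changed most in the places of Bckdha, Bckdhb, Hibch and Dbt. At E18.5d, Hibadh (68.1 FPKM) was followed by Bckdk and Mccc1, whose hearts overlapped, then Bckdhb (32.7), Bcat2 (29.3), and Bckdha, Dbt, Ppm1k and Hibch (21.6 to 16.9), each overlapping its neighbour in that order, with Bcat1 last at 3.01. At P1d, Bckdha (53.4) stood next to Hibadh (69.7) and overlapped Bckdk (44.6). The place of Bckdha among the 10 depends on how reads shared with B3gnt8 were counted, which is not known. By P7d, Bckdhb (13.2) had moved from the fourth to the seventh place and overlapped Ppm1k (12.1) but not Dbt (11.6), while Bckdha (33.7) lay between Bckdk (42.3) and Mccc1 (24.2) without overlapping either. Hibch moved from place 9 at E18.5d (16.9) to place 7 at P1d (16.2), overlapping Ppm1k there, without a rise in its own mean. It was in place 5 at P7d (22.7), overlapping Mccc1. Dbt moved from place 7 at E18.5d to place 9 at P1d and P7d, with hearts that overlapped those of Ppm1k at every stage.

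Around the members, 22 other genes of the pathway were listed by role, and all 22 passed the filter. Of these, 7 were higher and 1 lower at P1d against E18.5d, 1 was higher and 12 lower at P7d against P1d, and 2 were higher and 8 lower at P7d against E18.5d. The shares of all genes higher and lower were 18.4% and 27.6%, 15.5% and 28.6%, and 12.5% and 36.9% in these comparisons. Their median log2 change was 0.13, -0.31 and -0.20 in that order, beside -0.06, -0.09 and -0.17 for all genes. After rescaling by the median of ratios the counts of the 22 were 9 and 1, 2 and 9, and 5 and 4. Of all 13618 genes, 3154 and 3112, 2986 and 2700, and 2905 and 2848 were then higher and lower. With columns rescaled to an equal sum the counts of the 22 were 4 and 2, 1 and 8, and 1 and 10. Those of all genes were 1175 and 4694, 2200 and 1729, and 1267 and 4443 on that scale. Without the hearts with high Xist, 1 heart was left at E18.5d and P7d. The calls of the 22 were then lost, as were those of most genes called with all 9 hearts. Their median log2 change was 0.15, -0.23 and -0.16 in that fit, in the same order.

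Among the 6 transport genes, Slc43a2, a plasma membrane carrier of large neutral amino acids, had the largest rise. It was at 1.01, 1.82 and 0.93 FPKM in the E18.5d hearts, 3.38, 4.4 and 3.24 in those of P1d and 3.39, 2.75 and 2.18 in those of P7d (1.07 log2 at P1d, limma adjusted p = 0.00111, and 0.75 at P7d, adjusted p = 0.00651, both against E18.5d). Slc7a5, the light chain of the main leucine exchanger, fell by 0.73 log2 from E18.5d to P7d (adjusted p = 0.000902) and by 0.78 from P1d to P7d (adjusted p = 0.000797), from 6.64 to 9.18 FPKM at E18.5d and 7.05 to 8.77 at P1d to 3.95 to 4.41 at P7d. Its heavy chain Slc3a2 rose at P1d (0.30, adjusted p = 0.00504, but 0.13 and 0.218 with an equal sum) and fell from P1d to P7d (-0.45, adjusted p = 0.000621). Slc7a8, another light chain, fell from P1d to P7d (-0.52, adjusted p = 0.0131), a call lost with a term for Xist (adjusted p = 0.0759). Slc43a1 was lower at P7d than at E18.5d (-0.34, adjusted p = 0.034), but not past the threshold after rescaling by the median of ratios (-0.22, adjusted p = 0.147), nor without any of the E18.5d hearts or P7d replicate 2 or 3 (adjusted p of 0.0569 to 0.101). Slc25a44, the mitochondrial carrier of branched-chain amino acids, passed in no comparison (8.49 ± 0.39, 8.87 ± 0.85 and 7.65 ± 0.38 FPKM, SD, n = 3).

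Dld, the subunit shared with the sister complexes, was more abundant than any member and passed in no comparison on the deposited scale, at 119.8 to 127.28 FPKM at E18.5d, 93.79 to 123.96 at P1d and 124.03 to 128.12 at P7d. After rescaling by the median of ratios its change from P1d to P7d, 0.23 on the deposited scale (adjusted p = 0.0632), was 0.34 and passed (adjusted p = 0.017).

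In the leucine arm, Acat1, the mitochondrial thiolase that also serves isoleucine and ketone bodies, was the one gene of the 22 called higher at P7d against P1d. It was at 94.89 to 97.15 FPKM at E18.5d, 94.73 to 99.32 at P1d and 115.92 to 122.2 at P7d (0.30 log2 against E18.5d, limma adjusted p = 0.000848, and 0.29 against P1d, adjusted p = 0.00129). Auh, the hydratase after the carboxylase, rose at P1d (0.49, adjusted p = 0.0028) and fell from P1d to P7d (-0.31, adjusted p = 0.0278). Ivd, isovaleryl-CoA dehydrogenase, fell from both stages to P7d (-0.26, adjusted p = 0.0227, and -0.27, adjusted p = 0.0217). After rescaling by the median of ratios the falls of Ivd (-0.08 and -0.16, adjusted p of 0.441 and 0.127) and that of Auh (-0.20, adjusted p = 0.103) no longer passed. The falls of Ivd also did not pass when replicate 1 or 2 of E18.5d or replicate 3 of P7d was left out (adjusted p of 0.077 to 0.0836) and without P1d replicate 1 or 2 or P7d replicate 3 (0.0604 to 0.081), and that of Auh without P1d replicate 2 or P7d replicate 2 or 3 (0.0555 to 0.0837). The rise of Acat1 over E18.5d was 0.26 with an equal sum (adjusted p = 0.0561).

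In the isoleucine and valine arms, Aldh6a1, methylmalonate semialdehyde dehydrogenase and the step after Hibadh, was at 27.64, 26.6 and 26.42 FPKM at E18.5d, 47.33, 46.95 and 32.15 at P1d, and 21.0, 17.54 and 17.62 at P7d. It rose by 0.61 log2 at P1d (adjusted p = 0.0056) and then fell by 1.11 to P7d (adjusted p = 0.000249), ending below E18.5d (-0.50, adjusted p = 0.0131, not past the threshold after rescaling by the median of ratios). Echs1, an enoyl-CoA hydratase shared with fatty acid oxidation, rose at P1d (0.37, adjusted p = 0.00357, but 0.067 with an equal sum) and fell to P7d (-0.55, adjusted p = 0.000497). Hsd17b10, the isoleucine arm's hydroxyacyl-CoA dehydrogenase, fell to P7d from E18.5d (-0.38, adjusted p = 0.0026) and from P1d (-0.52, adjusted p = 0.000602), the former not after rescaling by the median of ratios. In the propionyl-CoA branch Pccb rose at P1d (0.34, adjusted p = 0.00172) and fell to P7d (-0.34, adjusted p = 0.00201), neither of which passed with an equal sum (adjusted p of 0.102 and 0.0671). Mcee was lower at P7d than at P1d (-0.34, adjusted p = 0.0272), but not past the threshold after rescaling by the median of ratios (-0.23, adjusted p = 0.0971), nor when replicate 1 or 2 of P1d, or replicate 2 or 3 of P7d, was left out (adjusted p of 0.0668 to 0.0883). The mutase Mmut was below E18.5d at P1d (-0.29, adjusted p = 0.00808) and P7d (-0.42, adjusted p = 0.00099).

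Klf15, a transcription factor known to promote branched-chain amino acid breakdown in muscle, had the largest change of the 22 genes from P1d to P7d. It was at 8.37, 9.42 and 8.02 FPKM at E18.5d, 21.61, 23.36 and 12.46 at P1d, and 4.18, 3.89 and 3.9 at P7d. No stage overlapped another. It rose by 1.02 ± 0.19 log2 at P1d (limma adjusted p = 0.00194), fell by 1.97 ± 0.19 from P1d to P7d (adjusted p = 6.87e-05) and ended 0.94 ± 0.19 below E18.5d (adjusted p = 0.0028). Like Klf15, Bckdha had its highest level at P1d, but at P7d Bckdha was above E18.5d and Klf15 below it. The rise at P1d was not particular to Bckdha. Slc3a2, Slc43a2, Auh, Echs1, Aldh6a1 and Pccb were also called higher there than at E18.5d on the deposited scale. Of these, Aldh6a1 was, like Klf15, also called lower at P7d than at E18.5d.

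**Figure D4:**
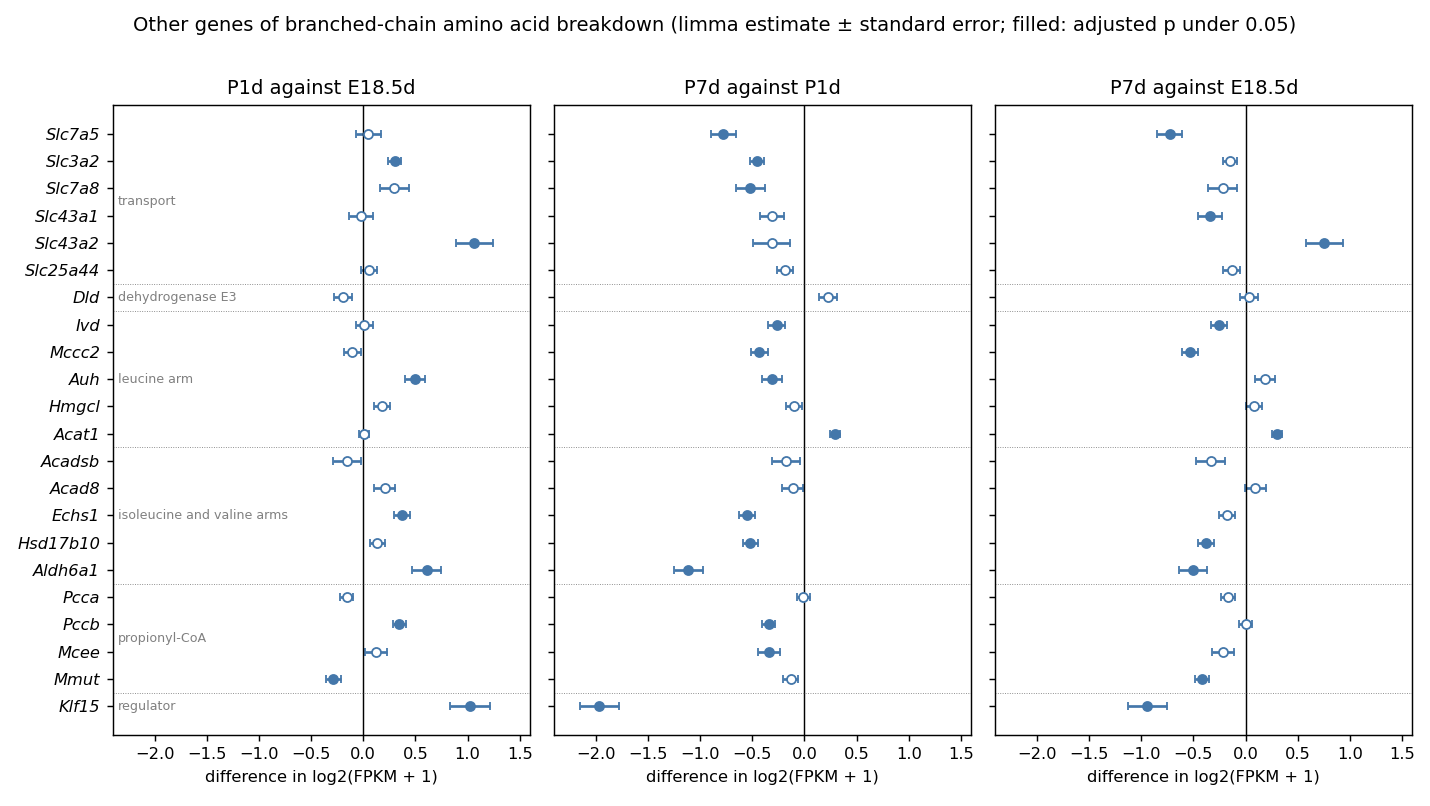
Difference in log2(FPKM + 1) of the 22 other pathway genes (horizontal axis, limma estimate with its standard error, deposited scale), grouped by role (dotted lines), in the 3 comparisons. Filled circles have an adjusted p under 0.05. Filled circles lie mostly to the right of 0 at P1d (7 to 1) and mostly to the left from P1d to P7d (12 to 1).

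The members of the branched-chain complex were set beside their counterparts in the pyruvate dehydrogenase. Pdha1, the counterpart of Bckdha, was at 198.6, 219.1 and 243.9 FPKM on average at E18.5d, P1d and P7d and rose by 0.29 log2 from the first to the last (limma adjusted p = 0.00217, but 0.109 with an equal sum). Pdhb, the counterpart of Bckdhb, was at 336.4, 326.3 and 300.2 FPKM (-0.16 at P7d against E18.5d, adjusted p = 0.0292). The direction of Pdhb turned after rescaling by the median of ratios (0.02, adjusted p = 0.833) and by quantiles (0.08, adjusted p = 0.258), and leaving out replicate 1 or 2 of E18.5d, or replicate 1 or 3 of P7d, ended its call (adjusted p of 0.0779 to 0.102). Dlat, the counterpart of Dbt, was at 86.1, 78.6 and 94.1 FPKM (0.12, adjusted p = 0.168). Within a heart, Bckdhb was 0.0948 to 0.0997 of Pdhb at E18.5d, 0.0756 to 0.0887 at P1d and 0.0427 to 0.0453 at P7d, without overlap. Bckdha was 0.101 to 0.117 of Pdha1 at E18.5d, 0.193 to 0.302 at P1d and 0.125 to 0.15 at P7d, again without overlap. The size of these fractions of Pdha1 is uncertain, as the counting of reads that Bckdha shares with B3gnt8 is not known. Dbt was 0.189 to 0.242 of Dlat at E18.5d and 0.111 to 0.136 at P7d, also without overlap, and the P1d hearts (0.141 to 0.2) overlapped those of E18.5d. As above, the exact permutation p of each non-overlapping pair was 0.1 and its adjusted p 0.158.

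The kinases of the pyruvate dehydrogenase changed too. Of the 12 genes listed for the pyruvate and 2-oxoglutarate dehydrogenases, 7 were higher and 4 lower at P7d against E18.5d, 3 and 2 at P1d against E18.5d, and 4 and 3 at P7d against P1d, beside 12.5% and 36.9%, 18.4% and 27.6%, and 15.5% and 28.6% of all genes in the same order. After rescaling by the median of ratios these were 8 and 2, 4 and 2, and 5 and 1. Of all 13618 genes, 2905 and 2848, 3154 and 3112, and 2986 and 2700 were then higher and lower. With columns rescaled to an equal sum the counts of the 12 were 4 and 3, 3 and 4, and 4 and 1. Those of all genes were 1267 and 4443, 1175 and 4694, and 2200 and 1729 on that scale. Pdk4, the pyruvate dehydrogenase kinase induced when fatty acids are burned, was at 11.17, 11.22 and 12.09 FPKM in the E18.5d hearts, 175.87, 135.07 and 108.19 in those of P1d and 134.91, 117.24 and 131.66 in those of P7d (3.47 and 3.37 log2 against E18.5d, limma adjusted p = 9.02e-07 and 3.94e-07). Pdk2 rose at P1d (0.85, adjusted p = 9e-05), whereas Pdk1 fell (-0.53 at P1d, adjusted p = 0.000552, and -0.84 at P7d, adjusted p = 3.51e-05) and Pdk3 fell at P7d (-1.23 against E18.5d, adjusted p = 3.32e-06). Of the phosphatases, Pdp2 was lower at P1d (-0.50, adjusted p = 0.00806), at 3.00 FPKM on average, and the more abundant Pdp1 was higher at P1d (0.42, adjusted p = 0.00168) and P7d (0.40, adjusted p = 0.00203) than at E18.5d, at 12.5, 17.1 and 16.8 FPKM on average over the stages in order. Ogdh, the first subunit of the 2-oxoglutarate dehydrogenase, was 0.94 log2 higher at P7d than at E18.5d (adjusted p = 4.07e-06), and Pdhx rose from P1d to P7d (0.47, adjusted p = 0.00341).

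The 3 genes whose centred log2(FPKM + 1) lay closest to that of Bckdha over the 9 hearts were Slc40a1, Calcoco1 and Bcas3, at a root mean square difference of 0.0931, 0.105 and 0.11 log2. Their mean FPKM peaked at P1d as that of Bckdha did, at 4.07, 10.1 and 5.88 for the iron exporter Slc40a1 over the stages in order, 35.9, 86.8 and 49.2 for Calcoco1, and 10.6, 26.6 and 15.2 for Bcas3. Those closest to Bckdhb were Acer2, Ears2 and Taf1d, at 0.0739, 0.0826 and 0.0965 log2. Acer2, an alkaline ceramidase, averaged 18.5, 16.0 and 7.20 FPKM, the mitochondrial glutamyl-tRNA synthetase Ears2 16.4, 13.6 and 6.37, and Taf1d 10.7, 7.61 and 3.52. These genes were picked for their likeness over the same 9 hearts, so their patterns carry no test.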

How the data were processed

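Heart RNA of 9 C57BL/6J mice was extracted with Trizol and made into libraries with a NEBNext Ultra RNA kit. For each of 48820 genes the authors deposited an FPKM value per heart, given to 2 decimals. The submitters' processing notes name STAR and GRCm38 (mm10). The counting tool, annotation and strand setting are not given in the sources used here. Samples were grouped by stage from their labels.
Values were taken as log2(FPKM + 1). Those of 13618 genes whose mean over the hearts reached 1 FPKM entered limma 3.58.1 (R 4.3.3, eBayes with trend after lmFit and contrasts.fit), all 9 hearts in 1 fit, with Benjamini-Hochberg adjustment over all of them and a threshold of 0.05. Within-heart ratios took FPKM + 0.1 in both genes and exact two-sided permutation tests (Python 3.11.15, numpy 2.4.6, pandas 2.3.3, scipy 1.17.1), adjusted over 30 tests. Figures used matplotlib 3.10.9.
FPKM are not counts: depth was fitted to the steps between low values, of which 74.8 to 81.3% came out whole, against 14.5 to 15.7% by chance, and was checked on 3 simulated hearts (largest error 0.962%). On simulated data with 200 of 13618 genes changed by 1 log2 unit, limma called 172 (86%) at P7d against E18.5d and 168 (84%) at P7d against P1d. It also called 9 and 16 of the unchanged genes in these comparisons. Far fewer genes changed in the simulation than were called in the hearts, so these rates need not hold for the data.
The members and lists were chosen with earlier results of these data known. Named beyond the 10 members were, per role, up to 3 called genes with the largest change in each direction and comparison, the partners Mccc2, Dld and Klf15, of the sister complexes the subunits Pdha1, Pdhb and Dlat and up to 2 called genes in each direction, and the 3 genes nearest in pattern to Bckdha and Bckdhb. Positions are from GENCODE M21 (GRCm38) and promoter windows from RefSeq (GRCm38.p6). B3gnt8 and 0610005C13Rik are named for their overlap. Slc25a44, Pdp1 and the markers Myh6 and Tnnt2 were named outside this rule after their values were seen. The alternatives were another pseudocount, 2 filters, 3 scalings, a replicate block, a fit of 2 stages, a fold threshold, Xist as a term, and hearts left out.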

Additional observations from a re-analysis of the deposited data

How the results depend on the processing

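Of the member changes, those of Bckdha, Bckdhb, Bcat2, Mccc1 and Dbt at P7d against E18.5d kept direction and call under 18 of 19 alternatives or more, the exception being the hearts with Xist above 1 FPKM left out, where 1 heart each is left at E18.5d and P7d. These 19 leave out the threshold of 1 log2 unit, which of these changes only that of Bckdhb passed. Several of the 19 could not alter the direction in this comparison. The other filters, the fit of 2 stages, the replicate block, the Xist term and each P1d heart left out kept the estimate as it was. They bear on the call alone. With 3 hearts a stage, small changes such as those of Bckdk, Hibch and Hibadh moved across the threshold with single hearts. The cause of the changes below was not tested.
Counts of members higher and lower that moved by over 1.5 times were as follows. At P7d against E18.5d (3 higher, 5 lower), 1 was higher with no filter, an equal sum or a term for Xist, 0 higher and 1 lower without the hearts with high Xist, and 0 higher and 1 lower with an absolute log2 change of at least 1 as well, and 1 to 3 were higher when each heart was left out in turn (1 without E18.5d replicate 1, E18.5d replicate 3 or P7d replicate 3). At P1d against E18.5d (2 and 2), 1 was higher and 4 lower with an equal sum, 1 lower with the Xist term, 0 and 0 without the hearts with high Xist, 1 and 0 with the log2 threshold, and 1 to 3 lower with a heart left out (1 without E18.5d replicate 1 or P1d replicate 3). At P7d against P1d (1 and 5), 0 were higher with no filter or the Xist term, 0 higher and 1 lower without the hearts with high Xist, 0 and 0 with the log2 threshold, 3 lower with an equal sum, and 0 to 1 higher with a heart left out (0 without P1d replicate 1, P1d replicate 2 or P7d replicate 3).
Of the 22 other pathway genes at P7d against E18.5d (2 higher, 8 lower), 1 was higher with a mean of at least 5 FPKM or an equal sum, 5 higher and 4 lower by the median of ratios, 5 and 5 by quantile normalization, and 0 and 0 without the hearts with high Xist. At P1d against E18.5d (7 and 1) the counts were 4 and 2 with an equal sum, 0 and 0 without those hearts, and 1 to 2 lower with a heart left out (2 without P1d replicate 1 or 3). At P7d against P1d (1 and 12), 2 were higher by the median of ratios or quantile normalization, 0 and 0 passed without those hearts, and 1 to 2 were higher with a heart left out (2 without P1d replicate 3).
Uncalled changes that turned sign were, at P1d against E18.5d, Hibch (0.018 by the median of ratios, and -0.13 to 0.027 with a heart left out) and Hibadh (-0.14 with an equal sum, -0.0032 with the Xist term, -0.0001 without the hearts with high Xist). At P7d against P1d they were Bcat1 (-0.18 without those hearts, and -0.14 to 0.18 with a heart left out), Bckdk (0.058 with an equal sum, 0.039 by the median of ratios, 0.051 by quantile normalization) and Ppm1k (0.17 without those hearts). Log2 ratios that turned with a heart left out were Bcat1/Bcat2 at P1d against E18.5d (-0.35 to 0.067), Hibch/Hibadh there (-0.19 to 0.0071), Bckdk/Ppm1k at P7d against P1d (-0.025 to 0.52) and Mccc1/Mccc2 at P7d against E18.5d (-0.043 to 0.0997).
Replicate numbers did not pair the hearts: deviations of the 9 same-numbered pairs correlated at -0.0546 to 0.112, and those of the 18 others at -0.182 to 0.129. With the replicate block, Ppm1k at P7d against E18.5d (-0.51, adjusted p = 0.028) and Mccc1 at P1d against E18.5d (-0.20, adjusted p = 0.0449) passed in addition, the block left 3 members higher and 6 lower at P7d against E18.5d, and no other member call changed.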
